A study of Mus musculus with 18 samples.

Results

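The contacts described here are those of *Runx1* on the *Tiam1* to *Mrps6* side of its domain, beyond *Clic6*. They comprised every distinct *Dpn*II fragment on chromosome 16 that a deposited list called significant and whose midpoint lay below position 92250000 (mm10), the lower edge of the domain in which the authors called interactions separately. There were 257 such fragments among 1970 listed over all baits. A further 315 lay beyond the other edge of the domain and 1398 lay inside it. The edge used here is that of the region called. From inspection by eye, the paper proposes a domain boundary at *Clic6*, which starts at 92498147, so this edge lies beyond that boundary. With the start of *Clic6* as the edge, the members again numbered 257. *Runx1* is transcribed from the minus strand, so lower coordinates lie downstream of the gene.

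The contacts were measured by circular chromosome conformation capture sequencing (4C-seq) in HPC-7 cells, an untreated mouse haematopoietic progenitor line grown with stem cell factor, so that every library came from 1 cell line and 1 genotype. There were 6 baits: the *Runx1* promoters P1 and P2, the intronic +24 enhancer between them, and a cohesin and CTCF binding site beside each (P1cc, +24cc and P2cc). Each bait had 2 replicates and 1 control in which the first ligation was left out, giving 18 libraries. Each list held the fragments called in both replicates, without read counts, so neither the depth behind a contact nor its spread over the replicates is known.

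Chromatin conformation capture joins pieces of DNA that are close together in the nucleus, and 4C-seq reads out the pieces joined to a chosen bait. Mammalian chromosomes are folded into domains, at whose borders CTCF and cohesin are often bound, and most contacts of an enhancer fall inside its own domain. *Runx1* encodes a transcription factor needed for the emergence of blood stem cells, and the +24 enhancer is active in haematopoietic cells. A contact reports proximity and says nothing by itself about the activity of the gene it touches.

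The sequences below were read from the plus strand of GRCm38.p6 (the build of mm10), with each *Dpn*II site (GATC) in capitals. The first 5 are fragments, or the beginning of 1, at the places on which the results turn. They are a fragment listed for both +24 and +24cc in the stretch between *Atp5o* and *Slc5a3* (chr16:91987678-91987972), one of the fragments of P1cc in *Itsn1* (chr16:91857059-91857170), the first 300 bases of the contact of P2cc in *Synj1* (chr16:90997809-90998108), a category 1 fragment of +24cc in *Tiam1* (chr16:89846126-89846351), and a fragment of +24 that lies inside a longer model of *Tiam1* (chr16:90112168-90112430).
Shared by +24 and +24cc: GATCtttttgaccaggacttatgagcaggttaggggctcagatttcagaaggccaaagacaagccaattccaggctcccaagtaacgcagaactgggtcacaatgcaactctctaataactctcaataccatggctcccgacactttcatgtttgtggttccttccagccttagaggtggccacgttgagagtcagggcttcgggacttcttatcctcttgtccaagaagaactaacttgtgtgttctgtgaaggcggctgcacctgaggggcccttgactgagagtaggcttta
P1cc in *Itsn1*: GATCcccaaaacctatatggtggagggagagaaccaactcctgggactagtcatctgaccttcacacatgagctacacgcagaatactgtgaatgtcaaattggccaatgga
P2cc in *Synj1*: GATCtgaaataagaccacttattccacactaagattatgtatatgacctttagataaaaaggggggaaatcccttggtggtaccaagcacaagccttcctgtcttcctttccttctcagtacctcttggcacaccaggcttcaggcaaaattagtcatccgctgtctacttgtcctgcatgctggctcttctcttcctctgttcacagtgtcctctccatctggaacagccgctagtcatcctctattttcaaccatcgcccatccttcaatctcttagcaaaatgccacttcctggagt
+24cc in *Tiam1*: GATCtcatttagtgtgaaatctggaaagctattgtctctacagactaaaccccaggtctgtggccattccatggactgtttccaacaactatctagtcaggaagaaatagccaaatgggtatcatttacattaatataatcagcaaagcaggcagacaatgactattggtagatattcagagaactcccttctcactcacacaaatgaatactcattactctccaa
+24 in the longer *Tiam1* model: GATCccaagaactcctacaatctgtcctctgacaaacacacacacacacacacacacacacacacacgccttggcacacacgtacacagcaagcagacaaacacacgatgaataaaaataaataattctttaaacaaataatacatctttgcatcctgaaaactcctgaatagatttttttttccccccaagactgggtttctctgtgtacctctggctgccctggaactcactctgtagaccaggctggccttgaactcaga

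The next 3 show listed places where GATC recurred at short spacing, so that 1 contact was cut into many fragments. They are 8 successive fragments of a tandem repeat (chr16:90188853-90189074), 4 successive fragments in exon 3 of *Son* (chr16:91657085-91657235), and the part of the same exon in which the site was doubled (chr16:91657589-91657716).
Tandem repeat: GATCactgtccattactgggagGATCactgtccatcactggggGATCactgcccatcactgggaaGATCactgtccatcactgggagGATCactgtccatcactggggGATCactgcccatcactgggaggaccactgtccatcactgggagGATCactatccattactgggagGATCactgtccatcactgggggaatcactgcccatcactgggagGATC
*Son*, short fragments: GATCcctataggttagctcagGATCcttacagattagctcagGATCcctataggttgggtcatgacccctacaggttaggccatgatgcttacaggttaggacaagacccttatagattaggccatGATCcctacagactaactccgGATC
*Son*, doubled sites: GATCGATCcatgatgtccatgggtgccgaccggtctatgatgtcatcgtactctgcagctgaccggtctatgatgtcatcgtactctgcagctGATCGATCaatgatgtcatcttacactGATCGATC

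The enhancer and its neighbouring cohesin and CTCF site accounted for nearly all of these contacts. +24cc listed 215 of the 257 fragments and +24 listed 53. P1cc listed 3 and P2cc listed 2, while P1 and P2 listed 0. Of all 229029 *Dpn*II fragments of the chromosome outside the domain, +24cc listed 0.176% and +24 listed 0.101%. P1cc listed 0.00699% of them and P1 0.00262%, while P2cc listed 0.000873% and P2 listed 0.00%. The 2 fragments of P2cc were thus its only ones outside the domain. Fragments that could not be mapped uniquely stayed in these denominators, because the number of fragments the authors tested was not given in the sources used here.

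Most fragments belonged to a single list, as they had to, since +24cc listed 215 and +24 only 53. 199 fragments were listed for +24cc alone, 37 for +24 alone and 16 for both, and the 3 of P1cc and the 2 of P2cc were in no other list. Counted within 2 kb of a fragment of the other list, +24 and +24cc shared 24 fragments. The authors graded each call: a category 1 fragment stayed significant after the reads of the strongest fragment in its window were removed, and a category 2 fragment when these reads were averaged with those of its neighbours. All 53 fragments of +24 were category 1 (0.100% of all fragments outside the domain were), as were those of P1cc and P2cc. Among the 215 of +24cc, 152 were category 1 (0.137%) and 63 were not.

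Abutting fragments were merged into 49 interactions, of which 35 belonged to +24cc, 12 to +24, 1 to P1cc and 1 to P2cc. The interactions of +24cc covered 99.2 kb and those of +24 covered 31.3 kb. Their median lengths were alike, at 2323 bp for +24cc (23 to 7991 bp) and 2189 bp for +24 (1128 to 6453 bp). Of the 257 fragments, 252 lay in the stretch from the curated *Tiam1* gene, its body included, to the edge of the domain. In that stretch, which held 5700 *Dpn*II fragments, +24 listed 0.895% and +24cc listed 3.72%. The other 5 lay farther out, and the farthest, listed for +24, was 16.2 Mb from the P1 start.

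**Figure D1:**
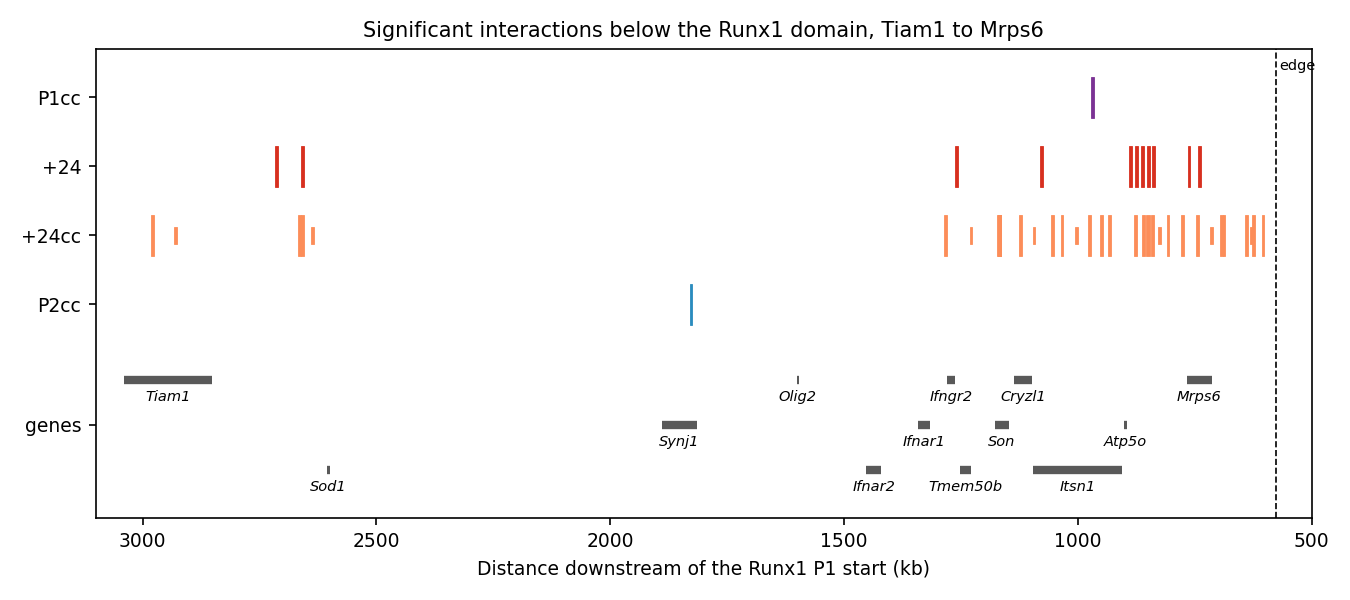
Interactions of each bait from *Tiam1* to the edge of the *Runx1* domain, with distance downstream of the P1 start in kb on the x axis and 1 row per bait (tall boxes hold at least 1 category 1 fragment, low boxes hold 0, and narrow boxes are widened to stay visible). +24cc and +24 crowd into the nearest 1300 kb, with 29 of 35 and 9 of 12 interactions, and the only interaction in the following stretch is that of P2cc in *Synj1*.

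The interactions were clustered towards *Runx1*. Within 1300 kb of the P1 start lay 29 interactions of +24cc and 9 of +24, and 6 and 3 were farther away. Median distances were 975.2 kb for +24cc and 881.8 kb for +24. From 90190248 to 91542581, a stretch of 1.35 Mb with 16 protein-coding genes and 3104 *Dpn*II fragments, neither bait listed a fragment. Beyond it both baits had contacts again, in and around *Tiam1* and between *Tiam1* and *Sod1*.

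The share of *Dpn*II fragments listed was therefore uneven with distance. Between 500 and 750 kb from the P1 start, +24cc listed 10.6% of the fragments below the domain and +24 listed 2.65%. Between 750 and 1000 kb, a band that runs from the first part of *Slc5a3* and *Mrps6* into the far end of *Itsn1*, the shares were 14.6% and 4.86%. Between 1000 and 1250 kb, +24cc still listed 9.12% but +24 only 0.526%. Between 1250 and 1500 kb the order turned, with 1.07% for +24 (6 fragments) and 0.356% for +24cc (2 fragments). On the other side of the domain, the shares of +24cc between 750 and 1000 kb and between 1000 and 1250 kb were 24.9% and 7.79%. Those of +24 were 25.6% and 4.5%. There the upper edge cuts the band from 750 kb, which holds 450 fragments against 535 on the lower side. Bands of equal distance from the P1 start thus differ in distance from the edge. Both baits reappeared between 2500 and 2750 kb below the domain, at 5.4% for +24cc and 0.871% for +24. Of the 31 fragments of +24cc in that band, 26 lay in 1 interaction of 1667 bp that holds a tandem repeat, without which the share was 0.912%.

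**Figure D2:**
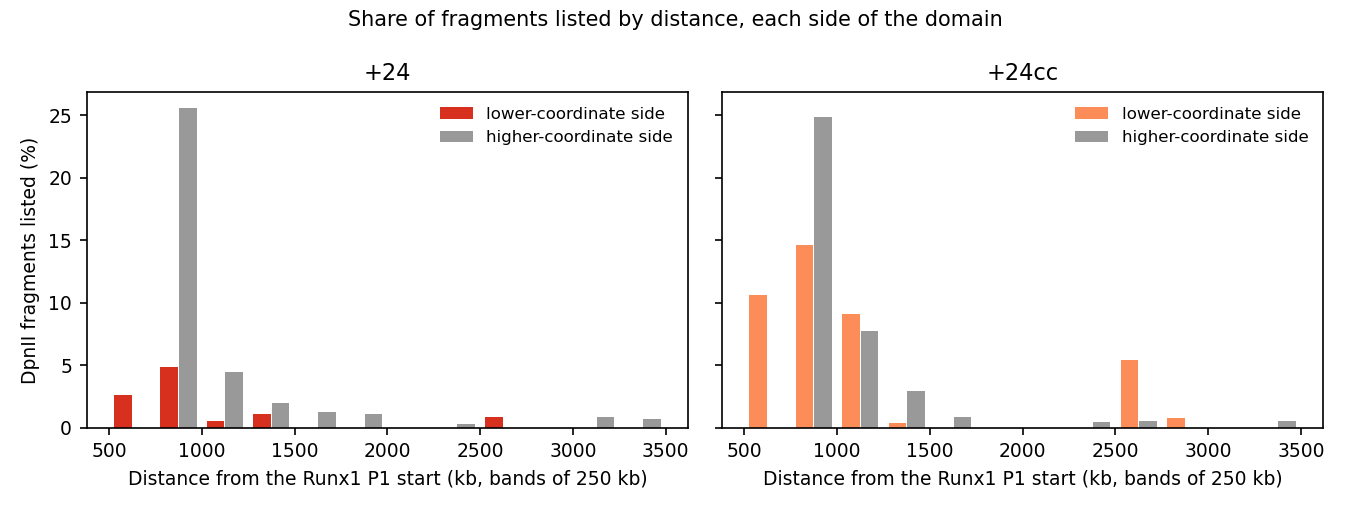
Percentage of *Dpn*II fragments listed (y axis) in bands of 250 kb from the P1 start (x axis), for +24 and +24cc, with bars for the lower and the higher side of the domain. Between 1000 and 1250 kb on the lower side, +24cc lists 9.12% and +24 lists 0.526%.

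The lists of +24 and +24cc differed in the side of the domain on which their interactions lay. Of the interactions outside the domain, 12 of 39 of +24 lay on the lower side (30.8%, Wilson 95% interval 18.6 to 46.4) and 35 of 60 of +24cc (58.3%, 45.7 to 69.9). This gave an odds ratio of 0.321, with a 95% interval of 0.123 to 0.803. By Fisher's exact test (two-sided) p was 0.00821, and the adjusted p over 5 comparisons was 0.0137. With interactions up to 4 bp apart merged, +24cc had 32 of 57 on the lower side (exact test, adjusted p = 0.0356). That merging counts a contact in *Son* once and not 4 times. The call was lost when interactions up to 5 kb apart were merged (exact test, adjusted p = 0.112). Intervals and tests counted interactions of 2 lists, cover counting error only, and treat neighbouring interactions as independent. P1cc had 1 of 4, P1 had 0 of 2 and P2cc had 1 of 1 interactions outside the domain on this side.

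Contacts of both baits were many in the 127 kb without curated genes between *Atp5o*, which encodes a subunit of the mitochondrial ATP synthase, and *Slc5a3*, which encodes a sodium-coupled myo-inositol transporter. Here +24cc had 7 interactions of 62 fragments, 58 of them category 1, which covered 26.3% of the stretch. +24 had 5 interactions of 24 fragments, all category 1, which covered 12%. The longest interaction of either bait was among them: +24cc at chr16:91972205-91980195 (16 fragments) and +24 at chr16:91961054-91967506 (11 fragments).

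It was in this stretch that the baits shared fragments. 14 of the 16 fragments listed for both +24 and +24cc lay there, in 4 runs at chr16:91949877-91951109, chr16:91964221-91967506, chr16:91975903-91978317 and chr16:91986113-91989156. The 295-bp fragment printed first above belongs to the last of these. The remaining run, of 2 fragments, was at chr16:90166302-90168265, 19.5 kb from the noncoding gene *Gm10789*. The shared fragments spanned 11.9 kb, were category 1 in both lists, and made up 30.2% of the fragments of +24 and 7.44% of those of +24cc. Of the 16, 0 overlapped a curated gene or the 2 kb before its start, against 47.3% of all *Dpn*II fragments from *Tiam1* to the edge, but 14 of them lay in these 127 kb, which hold no curated gene. The lists come from separate bait amplifications of the same cell cultures, and both baits were cut with *Mse*I as the second enzyme.

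By interactions, 5 of the 12 of +24 had an overlap with one of +24cc. In uncurated models this stretch is not empty, since the noncoding *D430001F17Rik* and *Gm36797* lie in it. Of the 16 shared fragments, 3 overlapped *D430001F17Rik* in the full RefSeq set, in the run at chr16:91964221-91967506, and 2 did so in GENCODE, in the run at chr16:91949877-91951109. In these sets 68.2% and 69.9% of all fragments from *Tiam1* to the edge overlapped a gene or its 2 kb upstream. An interaction of +24 at chr16:91936944-91938522 fell in *Gm36797* in the full RefSeq set and in *D430001F17Rik* in GENCODE.

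**Figure D3:**
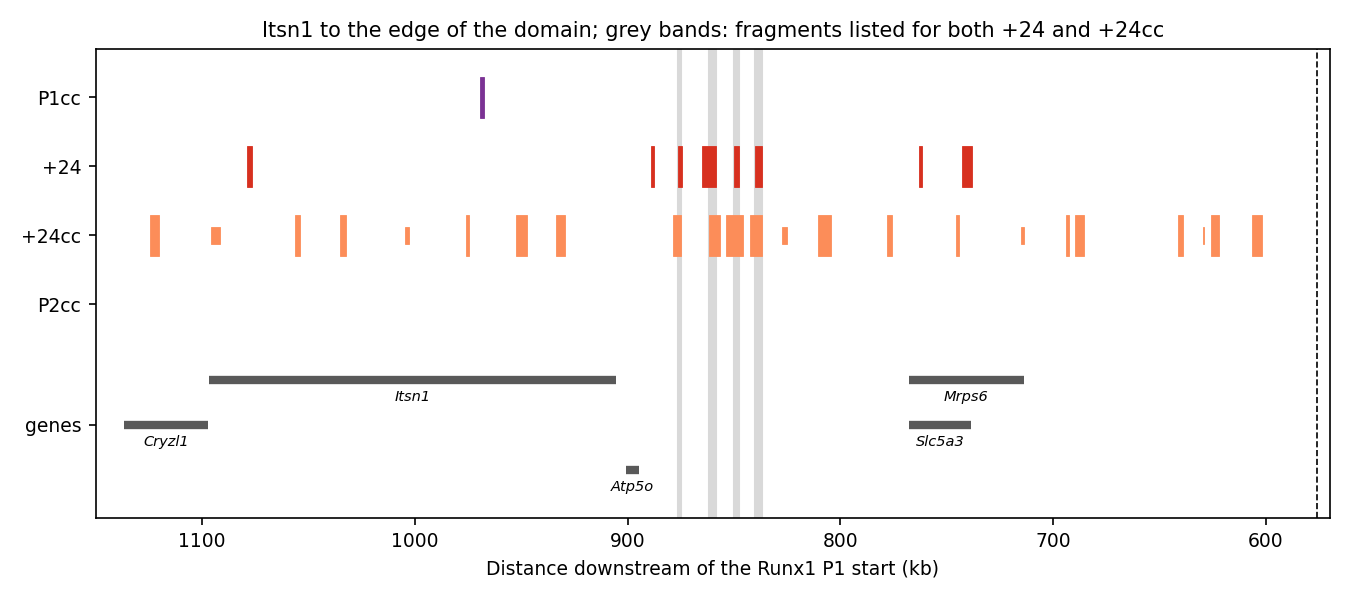
Interactions of P1cc, +24 and +24cc from *Itsn1* to the edge of the domain, with distance downstream of the P1 start in kb on the x axis (tall boxes hold at least 1 category 1 fragment, low boxes hold 0; grey bands mark fragments listed for both +24 and +24cc). The 4 grey bands lie between *Itsn1* and *Slc5a3*, and +24 has 1 interaction in *Itsn1* against 7 of +24cc.

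At *Slc5a3* and *Mrps6*, which start next to each other on the same strand, both baits had contacts. None of their fragments was shared, and these were too few to tell whether the baits differ there. *Mrps6* encodes a protein of the mitochondrial ribosome. +24 had 2 interactions there, with 13 category 1 fragments: chr16:92063035-92064263 in intron 1, 4.71 kb from the *Slc5a3* start, and chr16:92083386-92088008, of which 4088 bp were untranslated sequence of *Slc5a3* exon 2. +24cc had 1 interaction at *Slc5a3* (chr16:92080555-92081829, 3 category 1 fragments), also in exon 2 and 1.56 kb from that of +24. A second one of +24cc at *Mrps6* alone covered its exon 3 (chr16:92110986-92112336) and held 0 category 1 fragments.

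Closer to the domain, +24cc went on alone. In the 138 kb between *Mrps6* and the edge it had 6 interactions of 38 fragments, 34 of them category 1, which covered 17.4 kb. +24 listed no fragment there, its last one ending at 92088008, 162 kb from the edge. Of these 6 interactions, 3 fell in the noncoding *Gm41496* and 1 in the noncoding *Gm29880* of the full RefSeq set. In GENCODE the same 3 also fell in *Gm49711*, a protein-coding model that starts with *Slc5a3* and *Mrps6* and that 2 interactions of +24 and 5 of +24cc overlapped. The last fragment of +24cc ended at 92224070, 25.9 kb before the edge and 68.3 kb from *Kcne2*, which encodes a potassium channel subunit. Its first fragment inside the domain lay 319 kb on, and for +24 the corresponding gap was 472 kb. These gaps cross the edge, inside which interactions were also called separately. The edge itself was 576 kb from the P1 start.

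*Itsn1* was the gene with the most contacts and the only one listed for 3 baits. It encodes intersectin 1, a scaffold protein of endocytosis. +24cc had 7 interactions of 42 fragments in its 191 kb, 25 of them category 1, and covered 11.6% of the gene. +24 had 1 interaction of 3 category 1 fragments, in intron 1, 18 kb from the start, and covered 1.03%. The interaction of P1cc (chr16:91856741-91858625, 3 category 1 fragments) spanned exon 24 of 39. It was the only contact of a promoter-side bait on this side apart from that of P2cc.

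In *Itsn1* no fragment was listed for more than 1 of the 3 baits. +24 and P1cc had 3 fragments each there and +24cc covered 11.6% of the gene, so this does not show that the baits differ. The nearest interactions of +24 and +24cc were 13.0 kb apart, and P1cc was 5.18 kb from the nearest of +24cc. Those of +24cc were spread from intron 1 to exons 31 and 32. The one closest to the start (chr16:91730340-91734310) lay 0.968 kb inside the gene and 1.54 kb before the start of *Cryzl1*, which runs the other way. Its 7 fragments held 0 of category 1, and so did the 10 fragments of the interaction in intron 14.

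Of the genes contacted, 6 were listed for +24cc and for no other bait: *Tiam1*, and 5 from *Tmem50b* to *Cryzl1*. *Cryzl1*, which encodes a quinone oxidoreductase-like protein, had 8 category 1 fragments in intron 6 (chr16:91701752-91705904), which also lie in the noncoding *Gm10785* on the other strand. *Son*, which encodes a splicing cofactor, had 12 fragments from 91654190 to 91660064, all category 1, most of them in exon 3. Of these fragments, 2 also overlapped *Gm36712*, an annotated protein-coding gene whose single exon ends at 91654719. *Tmem50b*, which encodes a membrane protein, had 6 fragments across its start (chr16:91596648-91598485), with 0 of category 1. Of the 49 interactions, this one lay over a curated start and 2 lay within 2 kb of one, the other being that between *Cryzl1* and *Itsn1*. Neither held a category 1 fragment. The share of all fragments near a start was not computed, so these counts do not show whether contacts at promoters were rare.

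The 250 bases before the *Tmem50b* start (RefSeq, GRCm38.p6, minus strand) are shown because theirs was the only promoter of a curated gene with listed fragments. They held no GATC, and the promoter entry, with 50 bases after the start, lay in 2 listed fragments. On neither strand did the entry hold a CTCF core motif, searched as AGGTGGC or AGGGGGC. It also lacked the RUNX motif TGTGGT and the motif of GATA factors, which was searched as AGATAA. In this order, the motifs were found in 16.0%, 16.8% and 11.2% of 32851 RefSeq promoters of the same length.
*Tmem50b* promoter: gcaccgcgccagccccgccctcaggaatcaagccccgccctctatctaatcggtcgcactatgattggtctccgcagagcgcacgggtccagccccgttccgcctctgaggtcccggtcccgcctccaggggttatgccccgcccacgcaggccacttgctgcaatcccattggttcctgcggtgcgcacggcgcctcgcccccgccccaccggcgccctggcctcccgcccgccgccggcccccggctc

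Farther out, contacts were few. P2cc had a single interaction, in intron 2 of *Synj1* (chr16:90997809-90999458), 11.6 kb from the start of this gene for a phosphoinositide phosphatase that acts in endocytosis. Its 2 fragments were category 1, and the nearest contact of +24cc was 543 kb away. +24cc had 2 interactions in the curated *Tiam1* gene, which encodes a regulator of cell adhesion and migration. The one in intron 12 of 28 exons (chr16:89846126-89847161) had 2 category 1 fragments, and the one at exon 4 (chr16:89896280-89898005) had 3 fragments and 0 of category 1.

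+24 had no contact in the curated *Tiam1* gene, but the longer models of the full RefSeq set and of GENCODE took in its interaction at chr16:90112168-90113482. The nearest curated gene there was *Gm10789*, 28.8 kb away. Past *Tiam1*, +24cc had 3 category 1 fragments 4.73 kb beyond *Bach1*, a gene for a haem-regulated repressor (chr16:87738073-87740147). In the full RefSeq set, 1 of these fragments took in a promoter of the noncoding *Gm32925* (chr16:87738354-87738653). +24 had 2 fragments 39.8 kb from the noncoding *Gm30726* (chr16:76591033-76592160).

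Across the whole set, 22 of the 49 interactions overlapped a curated gene or the 2 kb before its start and 27 did not. They touched 10 genes, 9 of them protein-coding, of the 29 protein-coding genes from *Tiam1* to the edge. +24 contacted 3 genes (*Itsn1*, *Slc5a3* and *Mrps6*) and +24cc contacted 9, including all 3 of +24. By fragments, 100 of 257 overlapped a gene or its 2 kb upstream (38.9%), against 47.3% of all 5700 *Dpn*II fragments from *Tiam1* to the edge. The 257 fragments came from 49 interactions and are not independent, so no interval is given. 68 of the fragments were mainly intronic, 17 mainly untranslated exon, 13 mainly coding, 2 mainly upstream and 157 intergenic. With all RefSeq genes the share was 56.4%, against 68.2% of all fragments of the stretch, and with GENCODE 55.3% against 69.9%. With curated genes it was 43.3% when the interaction that holds a tandem repeat was left out.

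Beside the 9 of 29 protein-coding genes contacted, 0 of the 4 class II cytokine receptor genes and 0 of the 2 oligodendrocyte-lineage genes were, groups too small to set apart from that share. *Ifngr2*, which encodes a subunit of the interferon gamma receptor, had contacts on both sides: +24 lay 1.03 kb beyond its end (chr16:91565035-91568146, 6 category 1 fragments) and +24cc 2.74 kb before its start (chr16:91542582-91544317). In GENCODE, *Ifngr2* ran on to 91565623 and overlapped that interaction of +24. *Ifnar1*, *Il10rb* and *Ifnar2* were 32.1, 117 and 137 kb from the nearest contact of +24cc.

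The nearest fragments to the oligodendrocyte-lineage genes were those of P2cc, 270 kb from *Olig1* and 226 kb from *Olig2*. Of 8 genes on either side of the lower edge, *Slc5a3* and *Mrps6* were contacted outside the domain, and *Clic6*, which lies inside, by P1 and P2 alone. *Kcne2*, *Smim11*, *Kcne1*, *Rcan1* and *Atp5o* were not contacted. The authors also called interactions separately inside the domain, so calls on either side of the edge may not be alike. The nearest fragments to *Atp5o* were those of +24, at 5.31 kb.

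Fewer interactions overlapped genes on this side of the domain than on the other. For +24, 3 of 12 did on the lower side (25.0%, Wilson 95% interval 8.89 to 53.2) and 21 of 27 on the higher side (77.8%, 59.2 to 89.4). This gave an odds ratio of 0.103 (0.0134 to 0.573), with an exact p of 0.0035 and an adjusted p of 0.0137. For +24cc, 17 of 35 did on the lower side (48.6%, 33.0 to 64.4) and 21 of 25 on the higher side (84.0%, 65.3 to 93.6), with an odds ratio of 0.185 (0.0382 to 0.708, exact p = 0.0066, adjusted p = 0.0137). These tests treat neighbouring interactions as independent. Of the lower-side interactions not at a gene, 5 of 9 for +24 and 7 of 18 for +24cc lay between *Atp5o* and *Slc5a3*. A further 6 of +24cc lay between *Mrps6* and the edge, so the same stretches without curated genes were counted several times.

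Genes themselves were unevenly spread: 47.3% of all *Dpn*II fragments from *Tiam1* to the edge overlapped a gene or its 2 kb upstream, and 68.6% from the upper edge to the end of *Erg*. The part of this in the difference was not tested. The call was also lost with other annotations, to an exact adjusted p of 0.154 for +24 and 0.387 for +24cc with all RefSeq genes (6 of 12 and 24 of 35 on the lower side), and to 0.694 and 0.364 with GENCODE. For +24cc the call was lost too when interactions up to 5 kb apart were merged, with 14 of 27 on the lower side and 16 of 20 on the higher side (exact adjusted p = 0.112).

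**Figure D4:**
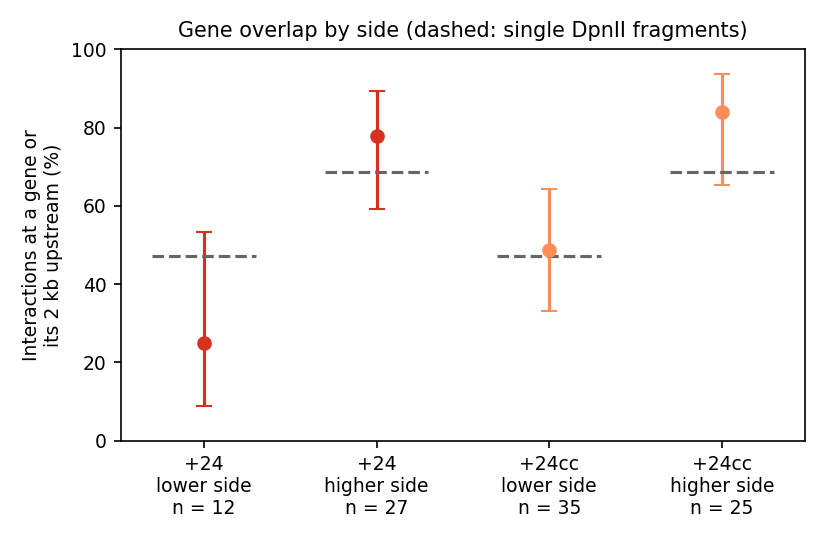
Percentage of interactions that overlap a curated RefSeq gene or its 2 kb upstream (y axis), by bait and side of the domain, with Wilson 95% intervals as error bars and dashed lines for the share of single *Dpn*II fragments from *Tiam1* to the edge or from the upper edge to *Erg*, which are shorter than interactions. Both baits are lower on the lower side, at 25.0% and 48.6%, than on the higher side, at 77.8% and 84.0%.

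Nearly all interactions of +24 held a category 1 fragment, 12 of 12 on the lower side and 26 of 27 on the higher side (exact test, adjusted p = 1). With 1 exception in 39 the exact test could not have given a p under 0.308, so it does not bear on a difference. For +24cc it was 27 of 35 (77.1%, Wilson 95% interval 61.0 to 87.9) and 17 of 25 (68.0%, 48.4 to 82.8), with an odds ratio of 1.58 (0.426 to 5.87, exact adjusted p = 0.695). Counted by fragments instead, the direction turned for +24cc: 152 of 215 were category 1 on the lower side and 162 of 189 on the higher side (exact test, adjusted p = 0.000385). Fragments of 1 interaction are not independent, and 26 of the 63 without category 1 lay in the 1 interaction with a tandem repeat. Without it, 152 of 189 were category 1 on the lower side, and the call was lost (exact test, adjusted p = 0.271).

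Some of the listed fragments were shorter than the 30 bp that the authors required of a read. There were 33 of these for +24cc and 6 for +24, 37 in all. Of the members between *Tiam1* and the edge they made up 14.7%, against 6.63% of all *Dpn*II fragments there. Of the 37, 17 lay in 1 tandem repeat, and without the interaction that holds it the share was 8.85% (20 of 226). Reads were assigned to fragments with fourSig, which called interactions over windows of 3 fragments, so the call of a fragment is not made on its own reads alone.

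The densest of these places was in an interaction of +24cc between *Tiam1* and *Sod1*, 30.5 kb from *Sod1* (chr16:90188581-90190247). No other bait listed it. It had 26 fragments in 1667 bp, 12.1% of those of +24cc on this side, and 0 of them category 1. A tandem repeat of 633 bp (chr16:90188853-90189485) made up 23 of the fragments, of which 12 were 22 bp long, 5 were 21 bp and 6 were 44 bp. The other 3, on its flanks, were 272 to 404 bp long. The repeat unit is seen in the sequence above, where most GATC sites are followed by near copies of the same short run. The 22-bp fragments had 5 different sequences with a median identity of 95.5% and a lowest identity of 81.8%.

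Exon 3 of *Son* is also repetitive, but its fragments were category 1. Its contact was counted as 4 interactions because 3 pieces of 4 bp, GATC doubled to GATCGATC as in the sequence above, were not listed. Merged across these pieces it was 1 contact of 12 fragments, 4 of them under 30 bp. With all interactions up to 4 bp apart merged, +24cc had 32 interactions on this side instead of 35.

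Base composition of the listed fragments was close to that of the stretch they came from, while the fragments of +24 were longer and more often held an *Mse*I site (described here, with no test). From *Tiam1* to the edge, members had a GC content of 46.5% and all fragments 46.4%, and 22.1% and 24.2% of their bases were masked as repeats. Members of +24 had a median length of 492 bp and those of +24cc 280 bp, against 292 bp for all fragments. An *Mse*I site was present in 74.5% of the fragments of +24 and 53.3% of those of +24cc, against 62.9% of all. Without the interaction that holds the tandem repeat, the values of +24cc were 348 bp and 59.7%. The +24 and +24cc baits were both cut with *Mse*I and the P1 and P2 baits with *Bfa*I, so bait and second enzyme cannot be told apart between these groups.

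Letters of known motifs were not markedly frequent. In windows of 500 bp around interaction centres, AGGTGGC or AGGGGGC was found on either strand in 2 of 11 windows of +24 and 7 of 34 of +24cc, against 14.6% of 4925 windows over the stretch. TGTGGT was found in 27.3% and 23.5% of windows, against 35.4%. AGATAA was found in 3 and 5 windows, against 24.0%. The shared fragment printed first holds both AGGTGGC and TGTGGT. A match describes letters and is not evidence that a factor was bound.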

How the data were processed

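The authors prepared 4C-seq libraries with *Dpn*II and a second enzyme (*Mse*I for the +24 baits, *Bfa*I for the others) and aligned trimmed reads (30 bp or longer) to mm10 with Bowtie at 0 mismatches. They left out fragments with 1 or more reads in the unligated control. Interactions were called with fourSig (3-fragment window, fdr 0.01, fdr.prob 0.05, 1000 iterations) on the whole chromosome and, separately, inside the domain, and calls of both replicates were intersected. The score column deposited by the authors is 1000 in every row and is not a measurement. The category is the only grade.

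Fragments were matched to *Dpn*II sites of GRCm38.p6, and all 257 coincided with 1. Abutting fragments were merged into interactions, and an interaction's side was that of its midpoint. A gene needed a curated RefSeq transcript and was extended by 2 kb upstream. Named genes were every gene contacted, the nearest gene to each other interaction, and the genes of 4 listed groups, of which 1 is not reported here as a group. Shares were compared by Fisher's exact test (two-sided), adjusted over 5 comparisons by the Benjamini-Hochberg method. The procedure was tested on simulated data. Python 3.11.15, numpy 2.4.6, scipy 1.17.1 and matplotlib 3.10.9 were used. The members and gene lists were chosen with earlier results of these data known. The replicates came from cells of different passages, but the labels do not say which. Read-level profiles were not analysed here.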

Additional observations from a re-analysis of the deposited data

How the results depend on the processing

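Of 52 recomputed tests, 44 kept their direction and their side of the threshold of 0.05, 6 kept only the direction and 2 reversed. The alternatives were other merging distances, category 1 alone, other annotations, gene bodies alone and other rules for the side. The 44 include tests of the category 1 share of +24, which could not have passed the threshold. They also include tests with the domain taken from *Clic6* to *Setd4*, which left every count unchanged and so repeat the reported ones. Merged up to 5 kb apart, the difference in the lower-side share between +24 and +24cc was -24.1 percentage points (-27.6 as reported) and that in the gene overlap of +24cc was -28.1 (-35.4 as reported), neither past the threshold. With all RefSeq genes the gene overlap of +24 and +24cc differed by -31.5 and -15.4 points, and with GENCODE by -14.8 and -18.3. In these sets 6 and 8 of the 12 lower-side interactions of +24 met a gene, and 24 and 23 of the 35 of +24cc. Without merging, the category 1 share of +24cc differed by -15.0 points instead of 9.14, and by -5.29 when the interaction with the tandem repeat was also left out. Of 21 recomputed counts and shares, 19 stayed within the limit set for them, which was a wide one. Within it, the members fell from 257 to 194 with category 1 alone. The fragments shared by +24 and +24cc rose from 16 to 24 when counted within 2 kb of a fragment of the other list. The share of fragments at a gene moved from 38.9% to 56.4% with all RefSeq genes and to 55.3% with GENCODE. Merging over 4 bp was chosen after seeing the data, as were leaving out that interaction and leaving out fragments under 30 bp with merging up to 1 kb apart. No paired analysis was possible on the lists because each holds only the fragments called in both replicates. The lists give no depth, so a fragment that is not listed may have had contacts that were not detectable.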
